A study of Mus musculus with 3 samples.

Results

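The kinesin genes examined here are the rows of the deposited table whose symbol is Kif followed by a number and, where present, a letter. There were 35 such genes among the 16977 genes of the table, and each of the 35 had a mean of at least 10 normalised counts over the libraries and was tested. They were sorted by textbook role into 11 mitotic kinesins, 9 kinesins of axonal and dendritic transport, 4 of endosome and vesicle transport, 3 that act on interphase microtubule growth or disassembly, 6 of the primary or motile cilium, and 2 others.

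RNA came from cultured neural stem cells of C57BL/6J mouse embryos at stage E12.5, grown on poly-D-lysine and laminin with EGF at 20 ng/ml and FGF at 10 ng/ml. There were 3 libraries, all from cells infected with lentivirus: 1 with a control hairpin (shControl) and 2 with a hairpin against Phf2 (shPHF2), which encodes a histone H3 lysine 9 demethylase. The series describes the shPHF2 libraries as biological replicates; the sources used here give neither hairpin sequences nor the time after infection. With a single shControl library, the error of the control could not be estimated. The limma p-values combine the spread between the shPHF2 libraries (1 residual degree of freedom) with a variance trend over all genes (6.94 prior degrees of freedom). The trend therefore weighs more than the spread of the gene itself. Values are normalised counts, in which the reads of each gene are scaled by a size factor per library, and between 26302177 and 37171026 reads per library fell in genes. Phf2 itself fell from 2593 normalised counts in the control to 985 and 714 in shPHF2 replicates 1 and 2 (log2 fold change -1.63; limma, adjusted p = 0.0085). All 8 neural stem cell markers were detected, with Nes at 118161, 101381 and 98053 and Vim at 77235, 116785 and 132042, although Hes5 had no more than 39.9 in any library. The list went both ways, with a median log2 fold change of 0.02. Both shPHF2 libraries were above the control for 4 of the 8 and below it for 3, against 41.4% and 41.8% of all genes tested. Only Sox2 was called, from 5893 to 10114 and 8819 (limma, adjusted p = 0.048), where 7.22% of all genes rose. Pax6 had 1392, 1046 and 691 (limma, adjusted p = 0.12), and Prom1 had 111, 193 and 499 (limma, adjusted p = 0.10). Of 4 fibroblast markers in the table none exceeded 7.23 in any library. Oligodendrocyte lineage genes were high in part, with Olig1 at 37506, 38217 and 52987 and Olig2 at 29320, 24241 and 29091. Pdgfra of that list had 539, 303 and 159, and none of its 6 genes tested was called (limma), where 14.3% of all genes were. The microglia marker P2ry12 had 99.7, 204 and 213 (limma, adjusted p = 0.085). Of the rest of that list, Csf1r had 11.0, 27.5 and 10.9, and Aif1 had no more than 2.50 in any library. Cx3cr1, Itgam and Ptprc were not among the genes measured. None of 3 endothelium and pericyte markers tested was called, where 14.3% of all genes were. Rgs5, which reached the minimum mean of 10 only through the shPHF2 libraries, had 2.99, 24.2 and 38.6 (limma, adjusted p = 0.061). Tek had 78.7, 165 and 95.2, and Kdr had 200, 156 and 77.2.

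Kinesins are motor proteins that use ATP to walk along microtubules or to take them apart. In a dividing progenitor, one set pushes spindle poles apart, moves and aligns chromosomes and builds the midbody at which daughter cells separate. Another set carries vesicles, mitochondria and receptors along axons and dendrites once the cell has left the cycle. Many mitotic genes are repressed outside G2 and M phase through a promoter element called the cell cycle genes homology region (CHR), bound by the DREAM and MuvB complexes, often with nearby CCAAT boxes bound by NF-Y.

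Promoter sequences are shown for 7 mitotic kinesins with a CHR close to the annotated start, and for 3 kinesins of other classes whose transcripts rose in shPHF2 cells (Kif1a at the first of its starts). Each run covers 100 bases before and 25 bases after the start in RefSeq, build GRCm38.p6, written 5′ to 3′ on the strand of the gene. Capitals mark the CHR (TTTGAA or TTCGAA) and the CCAAT box (CCAAT), on either strand, so that they also appear as TTCAAA or ATTGG.
Kif11: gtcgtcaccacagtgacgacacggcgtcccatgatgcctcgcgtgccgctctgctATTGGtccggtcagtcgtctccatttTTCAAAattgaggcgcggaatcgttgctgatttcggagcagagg
Kif22: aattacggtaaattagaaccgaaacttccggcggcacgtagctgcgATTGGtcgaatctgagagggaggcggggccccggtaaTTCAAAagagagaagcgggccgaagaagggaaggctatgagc
Kif15: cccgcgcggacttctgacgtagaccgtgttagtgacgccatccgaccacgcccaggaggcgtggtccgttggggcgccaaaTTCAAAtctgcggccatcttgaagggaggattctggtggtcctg
Kif23: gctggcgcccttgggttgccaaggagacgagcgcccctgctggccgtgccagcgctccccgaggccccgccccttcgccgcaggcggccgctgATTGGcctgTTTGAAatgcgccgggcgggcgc
Kif18b: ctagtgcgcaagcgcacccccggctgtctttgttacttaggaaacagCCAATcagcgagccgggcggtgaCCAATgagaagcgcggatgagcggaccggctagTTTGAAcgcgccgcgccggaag
Kif20b: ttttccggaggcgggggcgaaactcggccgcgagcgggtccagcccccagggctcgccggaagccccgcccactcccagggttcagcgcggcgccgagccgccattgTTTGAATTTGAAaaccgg
Kif4: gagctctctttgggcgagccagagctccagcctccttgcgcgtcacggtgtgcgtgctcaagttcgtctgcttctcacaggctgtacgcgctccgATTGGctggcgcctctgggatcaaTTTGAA
Kif1a: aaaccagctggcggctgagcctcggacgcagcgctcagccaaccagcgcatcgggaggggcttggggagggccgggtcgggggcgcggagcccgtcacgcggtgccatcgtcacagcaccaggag
Kif3b: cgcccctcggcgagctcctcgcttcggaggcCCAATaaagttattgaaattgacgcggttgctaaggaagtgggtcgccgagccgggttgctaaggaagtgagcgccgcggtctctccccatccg
Kif16b: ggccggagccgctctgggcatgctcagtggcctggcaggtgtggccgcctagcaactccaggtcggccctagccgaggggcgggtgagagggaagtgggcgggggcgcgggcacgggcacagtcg
In the order shown, the runs lie at chr19:37376282-37376406 (plus strand), chr7:127042396-127042520 (minus strand), chr9:122950981-122951105 (plus strand), chr9:61946775-61946899 (minus strand), chr11:102925100-102925224 (minus strand), chr19:34922258-34922382 (plus strand), chrX:100625965-100626089 (plus strand), chr1:93101850-93101974 (minus strand), chr2:153291316-153291440 (plus strand) and chr2:142901440-142901564 (minus strand). In Kif11 and Kif15 the CHR sits at bases -19 to -14 and in Kif22 at -17 to -12, with a CCAAT box at -45 in Kif11 and -54 in Kif22. In Kif23, Kif18b, Kif20b and Kif4 it lies just after the start, from base 3, 4, 8 and 20 respectively, and Kif20b holds 2 copies in a row.

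Windows of 300 bases (250 before and 50 after the start) were matched for 29 of the 35 kinesins, 10 of them mitotic. A CHR was found in 9 of the 10 mitotic windows, the exception being Kif18a. It was found in 4 of the 19 other matched kinesins, namely Kif24, Kif26b, Kif27 and the second of the Kif1a starts. Among all 32851 promoter windows, 19.2% held it. The windows of Kif14, Kif2c, Kif4, Kif27 and the second Kif1a start lie wholly inside the gene bounds of GENCODE M21. The starts used there are thus not the outermost starts of these genes. In Kif14 and Kif2c the CHR began at bases -228 and -103. Within 60 bases before to 25 after the start, a span chosen after the positions were seen, 7 of 10 mitotic and 3 of 19 other kinesins (Kif1a, Kif24 and Kif26b) had a CHR, as did 4.72% of all windows. A CCAAT box stood in 6 of 10 mitotic and 7 of 19 other kinesins, against 37.4% of all windows. An E2F site (TTTCCCGC, TTTGGCGC, TTTGCCGC or TTTCGCGC, either strand), the element of G1 and S phase genes, was found in Kif15 and Kif18a and in none of the other 27, against 2.26% of all windows. In Kif15 it ends next to the CHR, at bases -27 to -20. The cyclic AMP response element (TGACGTCA) was found in Kif5c, Kif17 and Kif18a, against 1.79% of all windows. These matches describe letters in a window and do not show binding.

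**Figure D1:**
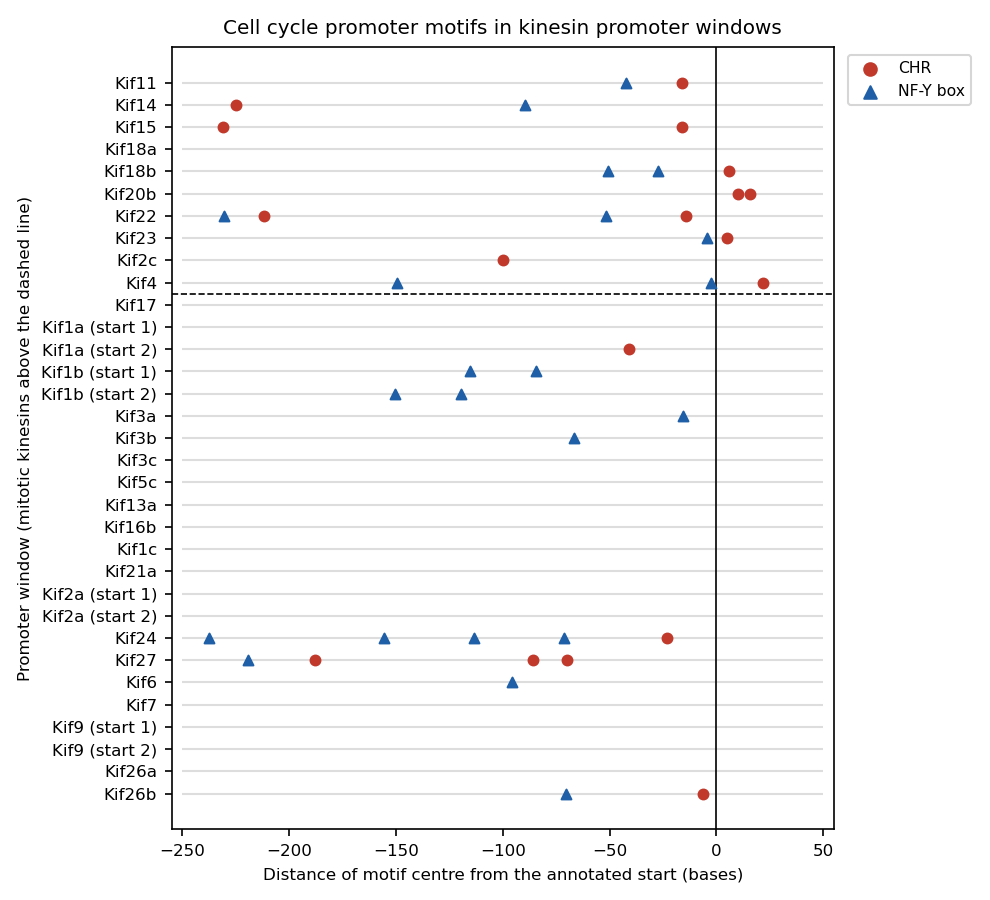
Position of the CHR (circles) and of the CCAAT box bound by NF-Y (triangles) in each matched 300-base promoter window, in bases from the annotated start. Mitotic kinesins are above the dashed line: 9 of 10 have a CHR, and in 7 of them it lies between 60 bases before and 25 after the start.

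The comparison of shPHF2 with shControl asks how transcripts differ when Phf2 is lowered. Mitotic kinesins were lower and several transport kinesins were higher. Of the 11 mitotic kinesins, 10 fell and 0 rose, where 7.11% of all 14148 genes tested fell (limma on log2 values, with p adjusted by Benjamini-Hochberg and under 0.05). Of the 9 axonal and dendritic transport kinesins, 3 rose and 0 fell, where 7.22% of all genes rose. Among these, Kif5a had 9.97 normalised counts in shControl and reached the minimum mean of 10 only through the shPHF2 libraries. With a minimum mean of 50, 2 of 7 transport kinesins tested rose, where 1004 of 12292 genes did. In the other classes Kif16b rose and Kif21b fell, so that 15 of 35 kinesins were called in all, 11 lower and 4 higher, where 14.3% of all genes were called. On the recovered reads, edgeR and DESeq2 each called 10 mitotic kinesins lower (8.06% and 6.86% of all genes fell) and 3 transport kinesins higher (7.12% and 7.06% rose), with Kif5c in place of Kif5a by DESeq2. No gene of the table passed with limma when the mean-variance trend or the minimum mean was dropped, or after quantile normalisation. In those fits 8 to 10 mitotic kinesins had an unadjusted p under 0.05, as did 3300 to 3893 of all genes. The median log2 fold change was -1.11 for the mitotic kinesins and 0.56 for the transport kinesins, and -0.01 for all genes tested. Fewer dividing cells and less RNA per dividing cell cannot be told apart in bulk RNA.

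**Figure D2:**
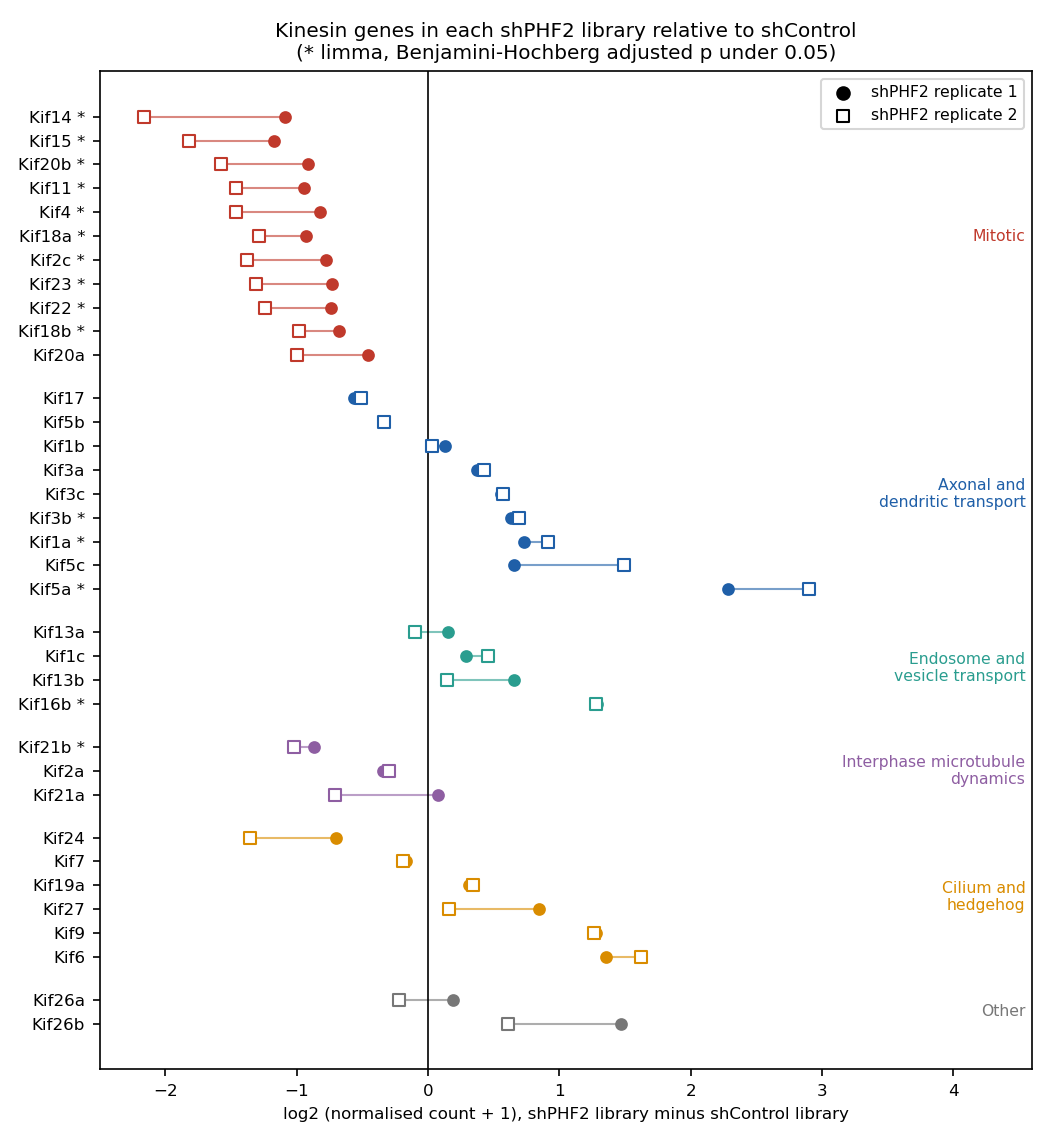
Difference in log2(normalised count + 1) between each shPHF2 library and the shControl library for the 35 kinesins, by role class. Circles are replicate 1, open squares replicate 2, and asterisks mark genes called by limma; each mitotic kinesin lies left of 0 in both libraries, and replicate 2 lies further left than replicate 1.

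Kif11, also called Eg5, is the plus-end motor that slides antiparallel microtubules and pushes the spindle poles apart. It was the most abundant mitotic kinesin per kilobase of exon in each library, and its 15035 normalised counts in the control compare with 7798 in replicate 1 and 5465 in replicate 2 of shPHF2. Both shPHF2 libraries were thus far below the control, at 51.9% and 36.3% of it. The log2 fold change was -1.20 (SE 0.24; limma, adjusted p = 0.018). Kif11 occupies bases 37376403 to 37421859 of chromosome 19, plus strand (GENCODE M21, GRCm38). Kif15, which backs up Kif11 in keeping the spindle bipolar, fell further, from 5156 to 2291 in replicate 1 and 1460 in replicate 2. Its log2 fold change was -1.49 (SE 0.26; limma, adjusted p = 0.013), and it lies on chromosome 9 from 122951046 to 123018733.

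The motors of the central spindle and of cytokinesis fell by unequal amounts. Kif14, which brings citron kinase to the midbody, had the most negative fold change of the family. It had 2481 normalised counts in shControl, 1167 in replicate 1 and 555 in replicate 2, which average 861 ± 433 (SD, n = 2) over the shPHF2 libraries. Its replicates were far apart, at 47.0% and 22.4% of the control, yet both were lower than it (log2 fold change -1.62, SE 0.38; limma, adjusted p = 0.031). Kif14 lies on chromosome 1 from 136466343 to 136531511. Kif20b, a motor needed for late steps of cytokinesis in cortical progenitors, fell from 4001 to 2121 and 1339 (log2 fold change -1.25, SE 0.27; limma, adjusted p = 0.023). Kif4, the chromokinesin that sets central spindle length together with Prc1, fell from 5838 to 3306 and 2123 (log2 fold change -1.14, SE 0.26; limma, adjusted p = 0.028), and 15.1% of its exon bases overlap Pdzd11 on the other strand.

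Kif23, the motor subunit of centralspindlin, had 3517 normalised counts in shControl, 2118 in replicate 1 and 1418 in replicate 2. It fell by 1.02 on the log2 scale (SE 0.25; limma, adjusted p = 0.035), and lies on chromosome 9 from 61915905 to 61946774. Kif20a, which carries the chromosomal passenger complex and Plk1 to the midzone, was the mitotic kinesin that did not pass. It had 4317 normalised counts in shControl, 3144 in replicate 1 and 2167 in replicate 2, which is -0.73 on the log2 scale (SE 0.24; limma, adjusted p = 0.080). Both shPHF2 libraries lay below the control here too, at 72.8% and 50.2% of it. Kif20a was not called under any of the 10 other settings tried, with adjusted p from 0.061 to 0.29. Its exons overlap those of Cdc23 on the opposite strand over 29.3% of their length, and the sources used here do not say whether counting used the strand.

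Kinesins that move chromosomes or trim spindle microtubules fell as well. Kif18a, which dampens chromosome oscillations at the metaphase plate, went from 4314 to 2262 and 1769 (log2 fold change -1.11, SE 0.20; limma, adjusted p = 0.015). Kif18b, its relative that shortens astral microtubules, went from 3510 to 2196 and 1776 (log2 fold change -0.83, SE 0.20; limma, adjusted p = 0.032). Kif2c, the depolymerase MCAK that corrects wrong kinetochore attachments, went from 3811 to 2226 and 1467. Its log2 fold change was -1.08 (SE 0.25; limma, adjusted p = 0.031). Kif22, the chromokinesin Kid that pushes chromosome arms outward, went from 2449 to 1469 and 1036 (log2 fold change -0.99, SE 0.24; limma, adjusted p = 0.034). The fold changes of the 11 mitotic kinesins thus spanned -1.62 to -0.73.

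In each of the 11 mitotic kinesins, shPHF2 replicate 2 was lower than replicate 1, where 49% of all genes tested were. The median difference between the shPHF2 libraries was -0.58 on the log2 scale for the mitotic kinesins and 0.06 for the transport kinesins, against 0.01 for all genes tested. Relative to the control, the mitotic median was -0.82 in replicate 1 and -1.38 in replicate 2, while the transport median was 0.56 and 0.57. Both shPHF2 libraries were below the control for 11 of 11 mitotic kinesins, against 41.8% of all genes tested. The size of the fall in mitotic kinesins therefore rests on which replicate is read, and its direction was the same in both. Phf2 was also lower in replicate 2, and the deposited name of that library follows another pattern than the names of the other 2; the part of either in this result was not tested.

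Mitotic kinesins work with a set of partner proteins. Of 20 genes listed for the chromosomal passenger complex, central spindle, cytokinesis, kinetochore checkpoint and spindle poles, 10 fell, 0 rose and 10 were not called (7.11% of all genes fell; limma), with a median log2 fold change of -0.92. Aurkb, the kinase of the passenger complex, went from 4500.5 to 1913 and 1432, and its partner Birc5 from 3580 to 1570 and 1156. Incenp, the scaffold of the same complex, went from 4988 to 2737 and 1652. Racgap1, which pairs with Kif23 in centralspindlin, fell from 10091 to 6441 and 4539 normalised counts, and Prc1, the partner of Kif4, from 10783 to 6667 and 4443. Nusap1, Kntc1, Bub1, Bub1b and Ckap2l were the others that fell. Replicate 2 was lower than replicate 1 in 20 of the 20, as in the motors themselves. Among the 5 kinesins named otherwise, none passed, where 14.3% of all genes did. The kinetochore motor Cenpe had 7899, 5037 and 2707 (limma, adjusted p = 0.060), and the minus-end motor Kifc1 had 1614, 1209 and 931 (limma, adjusted p = 0.11). Kifc1 and its near-identical copy Kifc5b may share reads, as may Kif4 and the pseudogene Kif4-ps, which had 36.9, 10.0 and 10.9.

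**Figure D3:**
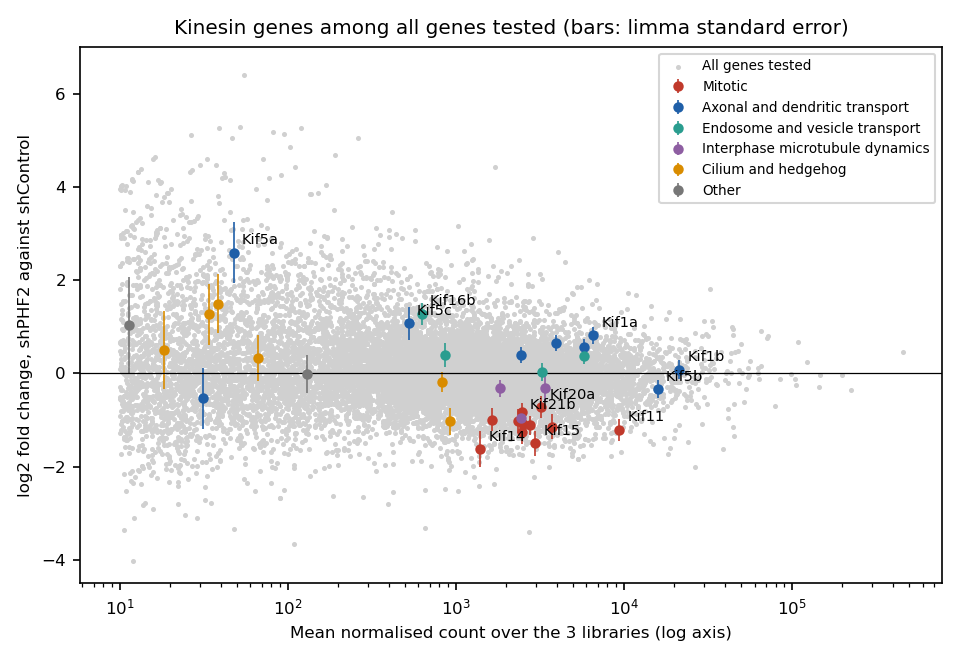
Log2 fold change of shPHF2 against shControl (vertical axis) against the mean normalised count over the 3 libraries (log axis), for all 14148 genes tested (grey) and the kinesins (coloured by class; bars are limma standard errors). The mitotic kinesins lie below 0 at means between 1401 and 9433, and Kif5a lies above 2 at a low mean.

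Among the 5009 genes with a mean in their range, from 1401 to 9433 normalised counts, 12.6% fell and the median log2 fold change was -0.07.

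Kinesins of axonal and dendritic transport split by gene. Kif1a, the fast motor of synaptic vesicle precursors and dense-core vesicles, had 4328 normalised counts in shControl, 7199 in replicate 1 and 8161 in replicate 2. It rose by 0.82 on the log2 scale (SE 0.18; limma, adjusted p = 0.025). Kif1a occupies bases 93015464 to 93101951 of chromosome 1, minus strand. Its relative Kif1b, which carries mitochondria and synaptic vesicle precursors, had 20552, 22515 and 21039 and was not called (log2 fold change 0.08, SE 0.21; limma, adjusted p = 0.83). Per kilobase of exon, the Kif1a share of the sum of Kif1a, Kif1b and Kif1c was 20.2% in shControl, 27.0% in replicate 1 and 29.3% in replicate 2.

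The kinesin-1 heavy chains, which pull mitochondria and other cargo with kinesin light chains, are encoded by the ubiquitous Kif5b and the neuronal Kif5a and Kif5c. Kif5a was close to undetected in the control, with 10 reads there, 63 in replicate 1 and 67 in replicate 2. In normalised counts it rose from 9.97 to 52.5 and 80.8, which is 2.59 on the log2 scale (SE 0.65; limma, adjusted p = 0.037). DESeq2 on the recovered reads did not call it (adjusted p = 0.062), and settings other than the main one gave adjusted p from 0.028 to 0.15. For Kif5a the authors' deposited DESeq2 output gives an adjusted p of 0.051. Kif5a lies on chromosome 10 from 127225696 to 127263348. Kif5c had 291 normalised counts in shControl, 459 in replicate 1 and 822 in replicate 2, higher in both shPHF2 libraries but unequally so. Its log2 fold change was 1.07 (SE 0.36, limma, adjusted p = 0.083), and the authors' deposited DESeq2 output gives it an adjusted p of 0.045. It was called in 1 of the 10 other settings tried, with adjusted p from 0.049 to 0.27. Kif5c lies on chromosome 2 from 49619298 to 49774778.

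Kif5b stayed the main heavy chain in each library, with 18430 normalised counts in shControl and 14637 and 14586 in the shPHF2 libraries. It was not called (log2 fold change -0.33, SE 0.20; limma, adjusted p = 0.29). Per kilobase of exon, the neuronal chains were a small share of the kinesin-1 sum: Kif5c made up 1.73% of it in shControl, 3.37% in replicate 1 and 5.89% in replicate 2. For Kif5a the shares were 0.06%, 0.39% and 0.59% in the same order.

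Heterotrimeric kinesin-2 carries cargo along axons and builds cilia, with Kif3a paired to Kif3b or Kif3c. Kif3b rose from 2831 normalised counts to 4386 and 4577 (log2 fold change 0.66, SE 0.17; limma, adjusted p = 0.040). Kif3c, the neuronal partner, had 4389, 6464 and 6520 (log2 fold change 0.56; limma, adjusted p = 0.066), and Kif3a had 2024, 2624 and 2728 (0.40; limma, adjusted p = 0.16). The shPHF2 libraries lay within a narrow range of each other for the 3 subunits and above the control for each. A stretch of 35.3% of the exons of Kif3c overlaps the antisense gene 1110002L01Rik, so that its value is less certain. Kif17, the homodimeric kinesin-2 of dendrites, was scarce, with 39.9, 26.7 and 27.7 normalised counts (limma, adjusted p = 0.63). Over the 9 transport kinesins, both shPHF2 libraries were above the control for 7, against 41.4% of all genes tested. Kif5a, counted among the 7, reached the minimum mean only through the shPHF2 libraries, so the filter favoured its direction.

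The 3 transport calls were lost once each library was corrected for GC content and exon length. In that fit 0 of 9 passed, where 4.49% of all genes rose, and the median was 0.45. An unadjusted p under 0.05 was seen for 5 of the 9, and for 4490 of all 14148 genes in either direction (limma). The log2 fold changes in that fit were 0.65 for Kif1a, 0.58 for Kif3b and 2.44 for Kif5a. In that fit 1011 genes fell and 635 rose, against 1006 and 1021 without it, and 9 of 11 mitotic kinesins still fell (7.15% of all genes), with Kif20b at a log2 fold change of -1.12 and an adjusted p of 0.054.

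Light chains, adaptors and scaffolds link transport kinesins to cargo. Of 19 such genes tested, 2 rose and 0 fell (7.22% of all genes rose; limma), with a median log2 fold change of 0.21. Klc4, a kinesin light chain, rose from 329 to 644 and 739 normalised counts, and Mapk8ip2, a JNK scaffold that binds kinesin light chains, rose from 139 to 387 and 479. The most abundant light chain gene, Klc1, had 3051, 3106 and 2746 (limma, adjusted p = 0.85), and the mitochondrial adaptor Trak1 had 2878, 3491 and 3136 (limma, adjusted p = 0.49). For the opposite motor, cytoplasmic dynein with dynactin and its regulators, 1 of 23 genes rose and 0 fell, where 7.22% and 7.11% of all genes did. The 1 gene that rose was Dync1i1, the neuronal intermediate chain, which went from 25.9 to 214 and 117. The dynein heavy chain Dync1h1 had 22613, 28353 and 19070 (limma, adjusted p = 0.94).

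Markers of other cell types were measured beside the transport kinesins. Of 7 neuron markers tested, 0 were called (limma), where 14.3% of all genes were. Their summed level was 61830 normalised counts in shControl and 41090 and 40299 in the shPHF2 libraries, most of it from Map2. Without Map2 the sums were 1810, 3156 and 1781, most of it from Syt1 at 1489, 2805 and 1256. Tubb3 had 104, 198 and 346 (limma, adjusted p = 0.070), and Nefl was at 0 in shControl with 2.50 and 33.8 in the shPHF2 libraries. Rbfox3, a marker of mature neurons, had 142, 87.5 and 13.3, and Snap25 had 36.9, 34.2 and 25.3. Dcx, a marker of young neurons, had 38.9, 27.5 and 106. Thus Tubb3 and Nefl were above the control in both shPHF2 libraries, Map2, Rbfox3 and Snap25 below it, and Syt1 and Dcx on opposite sides. Nefl likewise reached the minimum mean only through the shPHF2 libraries, as Kif5a did, so the filter favoured its direction. Of 5 astrocyte markers 4 were above the control in both shPHF2 libraries, as were 41.4% of all genes tested. Gfap and Aqp4, counted among the 4, reached the minimum mean only through the shPHF2 libraries, so the filter favoured their direction. Only S100b of the 5 passed the test, from 331 to 1094 and 850.0, where 7.22% of all genes rose. Gfap had 1.99, 10.8 and 20.5, Aldh1l1 had 146, 152 and 1009, and Aqp4 was at 0 in shControl with 6.67 and 37.4 in the shPHF2 libraries. The astrocyte sum was 5250.1, 5261 and 3439 with Aldoc, which had 4772, 3998 and 1522, and 478, 1263 and 1917 without it. The part of these cell types in the rise of Kif1a, Kif3b and Kif5a was not tested.

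Of the 4 kinesins of endosome and vesicle transport, 1 rose, where 7.22% of all genes did. Kif16b, which moves early endosomes through its lipid-binding PX domain, had 321 normalised counts in shControl, 784 in replicate 1 and 779 in replicate 2. The replicates were nearly equal and more than 2 times the control, which is 1.28 on the log2 scale (SE 0.23; limma, adjusted p = 0.015). It was the 1 kinesin still called higher once GC content and length were corrected for (adjusted p = 0.026). Kif16b occupies bases 142617474 to 142901531 of chromosome 2, minus strand. Kif1c, the most abundant of the class per kilobase, had 4819, 5887 and 6633 (log2 fold change 0.37, SE 0.18; limma, adjusted p = 0.20). Kif13a had 3225, 3592 and 3007, and Kif13b had 701, 1104 and 773, neither of them called.

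Of the 3 kinesins that act on interphase microtubules, Kif21b fell, where 7.11% of all genes did. It is a neuronal kinesin-4 that pauses microtubule growth, and it had 3588 normalised counts in shControl, 1968 in replicate 1 and 1767 in replicate 2. Its log2 fold change was -0.94 (SE 0.18; limma, adjusted p = 0.017), and the call held once GC content and length were corrected for (adjusted p = 0.018). Kif21b lies on chromosome 1 from 136131389 to 136177998. Its relative Kif21a did not show the same pattern in both replicates, with 3809 in shControl, 4021 in replicate 1 and 2337 in replicate 2 (log2 fold change -0.31, SE 0.30; limma, adjusted p = 0.52). Kif2a, a microtubule depolymerase of neurons and spindle poles, had 2115, 1668 and 1723 (log2 fold change -0.32; limma, adjusted p = 0.27), and 19.2% of its exons overlap those of Dimt1 on the other strand.

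None of the 6 ciliary kinesins was called by limma, where 14.3% of all genes were. Kif24, which acts with CP110 to hold back cilium assembly in cycling cells and has a CHR at bases -26 to -21, came nearest. It had 1377 normalised counts in shControl, 849 in replicate 1 and 538 in replicate 2, which is -1.03 on the log2 scale (SE 0.29; limma, adjusted p = 0.054). It was called by edgeR (adjusted p = 0.039) and DESeq2 (adjusted p = 0.037) on the recovered reads, and the authors' deposited table gives 0.032. Its replicate 2 was the lower, as in the mitotic kinesins. Kif7, the regulator of GLI factors at the cilium tip in hedgehog signalling, had 895, 796 and 782 and was not called (log2 fold change -0.18, SE 0.21; limma, adjusted p = 0.61). The 4 others were scarce. Kif6 had 16.9, 45.0 and 54.3 normalised counts and Kif9 had 16.9, 42.5 and 42.2, neither of them called. Kif19a, which trims motile cilia, had 56.8, 70.9 and 72.3, and Kif27 had no more than 25.8 in any library. In the last class, Kif26a had 129.6, 148 and 111 (log2 fold change -0.01, SE 0.41; limma, adjusted p = 0.98) and Kif26b had 5.98, 18.3 and 9.65, both without a call.

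**Figure D4:**
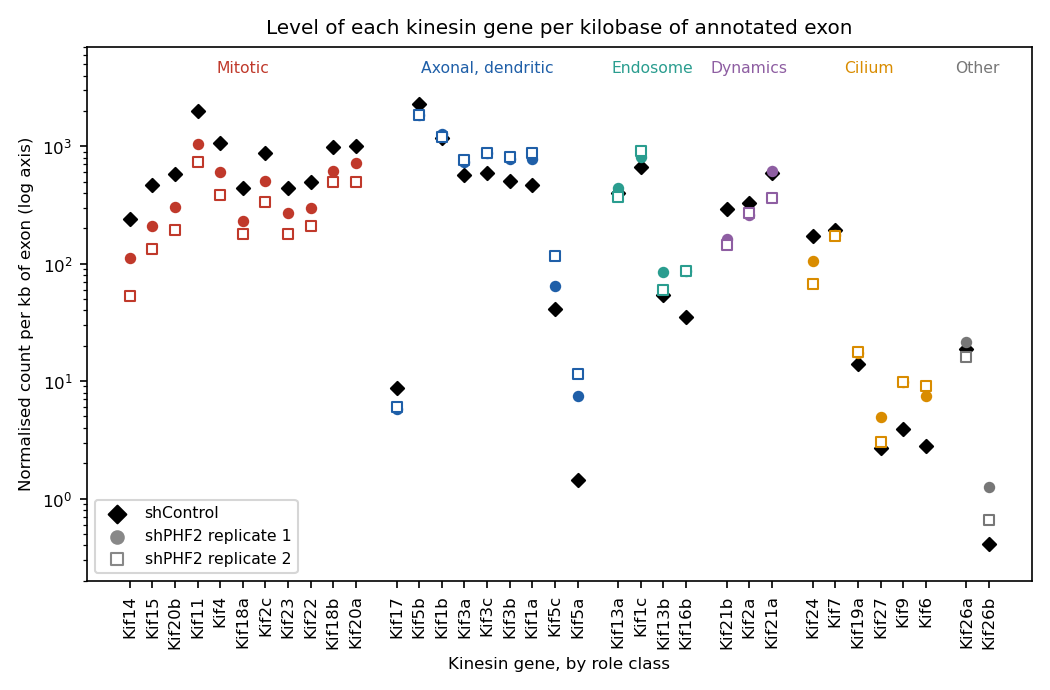
Normalised count per kilobase of annotated exon (log axis) for each kinesin in shControl (diamonds), shPHF2 replicate 1 (circles) and replicate 2 (open squares), by class. Kif5b and Kif11 had the highest levels in shControl, and Kif26b and Kif5a the lowest.

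Levels per kilobase of exon allow genes to be ordered within a library. In shControl, Kif5b stood first at 2309 normalised counts per kilobase, followed by Kif11 at 2015, Kif1b at 1167, Kif4 at 1059, Kif20a at 995, Kif18b at 983 and Kif2c at 873. Thus 5 of the first 7 were mitotic. In shPHF2 replicate 2 the order was Kif5b at 1828, Kif1b at 1195, Kif1c at 912, Kif3c at 880, Kif1a at 875, Kif3b at 812 and Kif3a at 761, and Kif11 stood at 733. Replicate 1 lay between, with Kif11 at 1045 behind Kif5b at 1834 and Kif1b at 1279. Lengths are the union of all annotated exons, which lowers the level of genes with long alternative exons such as Kif1b.

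Summed over the family, the level per kilobase fell from 17015 in shControl to 14072 in replicate 1 and 12381 in replicate 2. Mitotic kinesins made up 50.5% of the sum in shControl, 34.9% in replicate 1 and 27.5% in replicate 2. The axonal and dendritic transport class made up 33.2%, 45.1% and 52.4% in the same order. The transport sum itself went from 5651 to 6345 and 6483 per kilobase, and the mitotic sum from 8591 to 4918 and 3400. The change in shares was therefore mostly a fall of the mitotic sum. These sums come from 1 control library and carry no test.

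**Figure D5:**
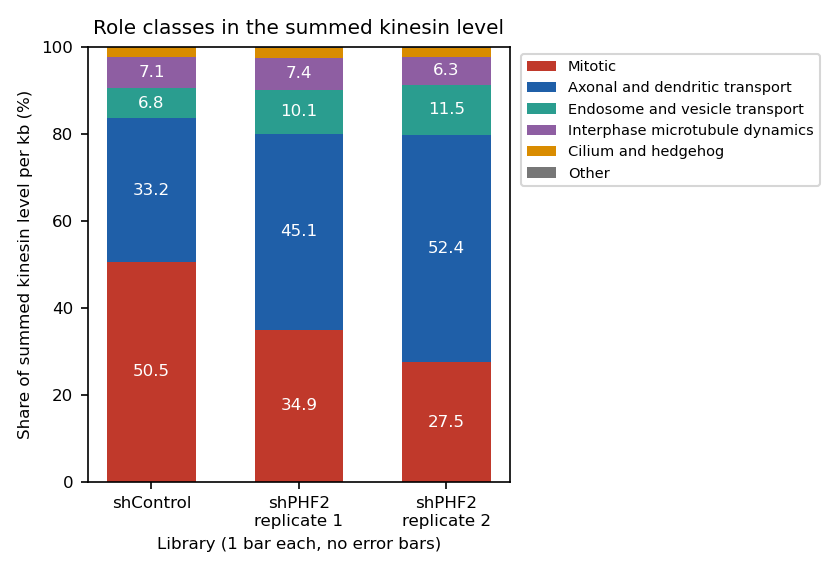
Share of each role class in the summed kinesin level per kilobase of exon, 1 bar per library. The mitotic share was 50.5% in the control against 34.9% and 27.5% in the shPHF2 libraries, and the axonal and dendritic transport share 33.2%, 45.1% and 52.4%.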

How the data were processed

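RNA depleted of ribosomal RNA was sequenced with a stranded kit, per the labels' protocols; HISAT2, HTSeq, DESeq2 and build mm10 are named in the submitters' processing notes, without versions, annotation or strand setting. The deposited signal is a normalised count, reads over a size factor, as the whole-number steps of its values show and per the file headers. Values were whole multiples of the smallest in each column (100%, within 0.001), so reads were recovered. The deposited log2 fold change, Wald score and p-value columns are the authors' DESeq2 output, per the file headers. The 4 rows naming no gene (61.4% to 61.5% of reads) were left out, and 0 library columns were unused.

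Log2(value + 1) was tested two-sided with limma 3.58.1 in R 4.3.3 (mean-variance trend) for 14148 genes with a mean of at least 10, adjusted p under 0.05; 1 residual and 6.94 prior degrees of freedom, the lone control being assumed to vary like shPHF2. Fold changes understate low genes. In 20 simulated sets of 14148 genes with 200 changed, limma recovered 40.9% of 2-fold and 81.9% of 4-fold changes, and 11.1% of its calls were false. The comparison itself called 2027 genes, more than were changed in the simulation, so these rates need not hold for it. Alternatives were other pseudocounts, filters and scalings, edgeR 4.0.16 and DESeq2 1.42.0 on recovered reads, and a GC and length correction. Each kinesin in the table is reported; full statistics are given for those called, for 6 kinesins of the name rule and for the most abundant of each class. Members and lists were chosen with earlier results of these data known. Exon lengths and positions are from GENCODE M21, promoters from RefSeq.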

Additional observations from a re-analysis of the deposited data

How the results depend on the processing

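With limma, no trend, no minimum mean and quantile normalisation each gave 0 calls for all genes, the family, the mitotic and the transport kinesins, although 8 to 10 mitotic, 3 to 5 transport, 15 to 19 family members and 3300 to 3893 of all genes had an unadjusted p under 0.05. edgeR called 2147 genes and DESeq2 1969, with 10 mitotic and 3 transport kinesins each. The GC and length correction left 9 mitotic and 0 transport kinesins, and it moved the transport median to 0.45, quantile normalisation to 0.69. The calls of Kif20b, Kif1a, Kif3b and Kif5a missed the threshold after correcting for GC and length, at log2 fold changes of -1.12, 0.65, 0.58 and 2.44 against -1.25, 0.82, 0.66 and 2.59; the cause was not tested. Without 1 shPHF2 replicate the mitotic median ranged from -1.38 to -0.82 and the transport median from 0.56 to 0.57, with no residual degrees of freedom and so no test. No paired analysis was possible because the single control carries no replicate number. Depth limits Kif5a, Kif6, Kif9, Kif17, Kif26b and Kif27, which had between 6 and 67 reads in a library.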
